A study of Mus musculus with 3 samples.

Results

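The imprinted Dlk1-Dio3 locus of mouse chromosome 12 was examined in Argonaute (Ago) HITS‐clip peaks of N2A cells, a mouse neuroblastoma line kept in basal conditions. The genes taken were Dlk1, Meg3, Rtl1, Rian, Mirg and Dio3, 6 of the 32093 protein-coding and long non-coding genes annotated. To these were added all miRNA hairpins that lie between 109.4 and 109.8 Mb of chromosome 12 in GRCm38, which were 66 of 2202. Genes and hairpins were taken by name and position, but the choice was made with earlier results of these data known. In HITS‐clip, ultraviolet light fixes proteins to the RNA they touch, Ago proteins are immunoprecipitated, and the RNA that comes with it is sequenced. The experiment was made to find miRNA targets in these cells.

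The samples were 3 replicates of 1 group, N2A cells in the basal state, with no second condition. Per the labels, ultraviolet doses of 400 and 200 mJ per square cm were given in turn. The line stands for tumour cells in culture, and the labels name no transgene or treatment. Since nothing says that the replicates came from separate cultures, the spread between them may be technical. The libraries had 711377, 498071 and 829936 deposited peaks (replicates 1, 2 and 3), without read counts, so read depth was unknown and no peak gives an amount of RNA. Replicate 1 stood apart at hairpins, as described below. Exon peaks in every library were found on 15 of 20 marker genes of N2A cells, among them Dbh and Hand2, and on 1 of 4 myeloid, 0 of 4 hepatocyte, 0 of 4 muscle and 2 of 4 astrocyte markers, beside 42.8% of all protein-coding genes. Th and Chat were among the 5 N2A markers without a peak in every library.

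The locus is imprinted, that is, most of its genes are read from the chromosome of only a single parent. The paternal copy gives the protein-coding genes Dlk1, Rtl1 and Dio3. The maternal copy gives the long non-coding RNAs Meg3, Rian and Mirg and, from the same strand, a large array of miRNAs and C/D box snoRNAs. It is known for high activity in the embryo and the brain. A miRNA is cut from a hairpin as a short mature strand from its 5′ arm (5p) or 3′ arm (3p), is loaded into Argonaute, and finds targets mainly through its seed, bases 2 to 8. An Ago peak over a hairpin can thus come from the loaded miRNA, while a peak over an mRNA can come from a target.

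The mature miRNAs that the results turn on are given first, from RefSeq on GRCm38.p6, 5′ to 3′, with the seed in capitals. The first 6 are those under the central part of a peak in all 3 libraries. The central part is the peak without its outer 30 nt on each side.
miR-127-3p: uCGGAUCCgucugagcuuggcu
miR-379-3p: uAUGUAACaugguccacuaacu
miR-411-5p: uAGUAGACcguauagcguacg
miR-1193-3p: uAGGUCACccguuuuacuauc
miR-300-3p: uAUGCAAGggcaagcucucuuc
miR-381-5p: aGCGAGGUugcccuuuguauauu
The next are the other arms opposite Rtl1 that were covered in 2 libraries, with miR-3071-5p, which is read from the Rtl1 strand.
miR-431-5p: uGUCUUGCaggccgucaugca
miR-433-5p: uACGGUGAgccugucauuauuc
miR-433-3p: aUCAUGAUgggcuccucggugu
miR-127-5p: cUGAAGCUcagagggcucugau
miR-434-5p: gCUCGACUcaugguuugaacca
miR-434-3p: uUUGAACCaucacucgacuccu
miR-136-5p: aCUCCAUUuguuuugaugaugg
miR-3071-5p: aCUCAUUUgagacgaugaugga

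Seeds were mostly not shared within the locus. The RefSeq table held 57 hairpins and 112 mature miRNAs of the interval, with 102 different seeds, and 60 of the 66 GENCODE hairpins matched a mature sequence. Of the seeds, 10 were carried by a pair of mature miRNAs, and 13 also by a miRNA elsewhere in the genome. The seed AUGUAAC joined miR-379-3p and miR-411-3p, the seed GGUAGAC joined miR-379-5p and miR-1193-5p, and the seed AGGUCAC joined miR-1193-3p and miR-370-5p. In 4 of the 10 pairs 1 member lay under the central part of a peak in at least 1 library, and in 0 of them both did.

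Peaks of the interval lay more often on the plus strand, the strand of Dlk1, Meg3, Rian, Mirg and 59 of the 66 hairpins. Rtl1 and 7 hairpins are on the minus strand. Peaks were counted by midpoint over the 400 kb. In replicate 1, 63 lay on the plus and 45 on the minus strand, a plus-strand share of 58.3% (Wilson 95% interval 48.9 to 67.2%). In replicate 2 it was 98 and 30, or 76.6% (68.5 to 83.1%), and in replicate 3 it was 105 and 39, or 72.9% (65.1 to 79.5%). The mean was 69.3% ± 9.65 (SD, n = 3). All 3 libraries were above their genome-wide shares of 49.7, 50.1 and 50.0%, and the interval of replicate 1 alone reached down to its share. The exact sign-flip permutation test on the log2 ratio of plus to minus, 1.21 ± 0.64, gave a two-sided p of 0.25, which is the smallest that 3 libraries allow. Intervals cover the counting of peaks only.

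The strand difference varied with peak width in replicates 2 and 3. In replicate 1 the plus-strand share was 58.5% at up to 85 nt, 57.1% at 86 to 200 nt and 58.3% over 200 nt. Among peaks of 86 to 200 nt, 8 were on the plus strand and 6 on the minus strand in replicate 1, 52 and 6 in replicate 2, and 39 and 1 in replicate 3. Among peaks of at most 85 nt the numbers were 48 and 34, 42 and 20, and 62 and 36. Peaks over 200 nt were 7 and 5, 4 and 4, and 4 and 2. Replicates 2 and 3 thus held most of their plus-strand excess in the class of 86 to 200 nt, and replicate 1 held few peaks of that class. Away from hairpins and from the exons of Dlk1, the class of 86 to 200 nt held 4 plus-strand and 6 minus-strand peaks in replicate 1, 7 and 5 in replicate 2, and 10 and 1 in replicate 3. The narrow class held 38 and 34, 21 and 19, and 34 and 32 there.

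**Figure D1:**
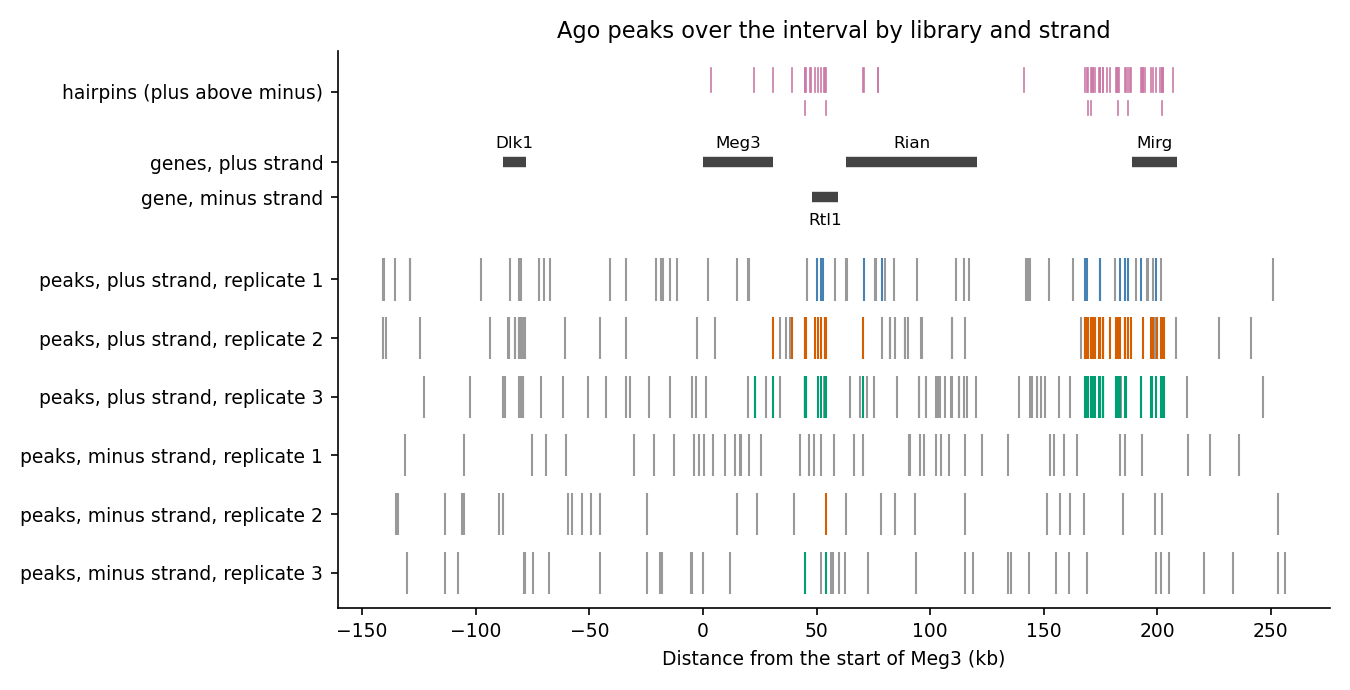
Peaks along the interval, with the distance from the start of Meg3 in kb on the x axis and a row for each library and strand; each line is the midpoint of a peak, coloured where it overlaps a hairpin on its strand and grey otherwise, with hairpins and genes above. Coloured plus-strand lines gather over the Rtl1 region and before and within Mirg, and are dense in replicates 2 and 3 and sparse in replicate 1.

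Hairpins took a large part of the plus-strand peaks. A hairpin was overlapped by 14 of 63 plus-strand peaks in replicate 1 (22.2%), by 52 of 98 in replicate 2 (53.1%) and by 47 of 105 in replicate 3 (44.8%), a mean of 40.0% ± 16.0 (SD, n = 3). On the minus strand it was 0, 1 and 2 peaks. Per 100000 peaks of the library, hairpin peaks of the locus came to 1.97 in replicate 1, 10.6 in replicate 2 and 5.90 in replicate 3. Replicate 1 was the lowest, though it had more peaks in all than replicate 2. The part of read depth in this was not tested.

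Of the 66 hairpins, 15 had a peak on their own strand in replicate 1, 40 in replicate 2 and 38 in replicate 3. Those with a peak in all 3 libraries were 9, or 13.6%, beside 8.40% of all annotated hairpins. These were Mir433, Mir127 and Mir434 opposite Rtl1, Mir379, Mir411, Mir1193, Mir300 and Mir381 in the array before Mirg, and Mir377 in Mirg. A further 23 had a peak in replicates 2 and 3 but not in replicate 1, 2 had a peak in replicate 1 alone, and 18 had none. Without replicate 1, 32 hairpins had a peak in both other libraries. The shares of covered hairpins in the locus were 22.7, 60.6 and 57.6% in replicates 1, 2 and 3, and among the other 2136 hairpins of the genome they were 14.6, 22.3 and 23.0%. Each library was higher in the locus, and replicate 1 was lowest in both sets.

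No hairpin of the locus had a peak on the opposite strand in all 3 libraries, 0 of 66, beside 0.409% of all annotated hairpins. In at least 2 libraries there were 8, and all 8 are annotated opposite another hairpin, so that their opposite-strand peaks lay on a hairpin too.

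**Figure D2:**
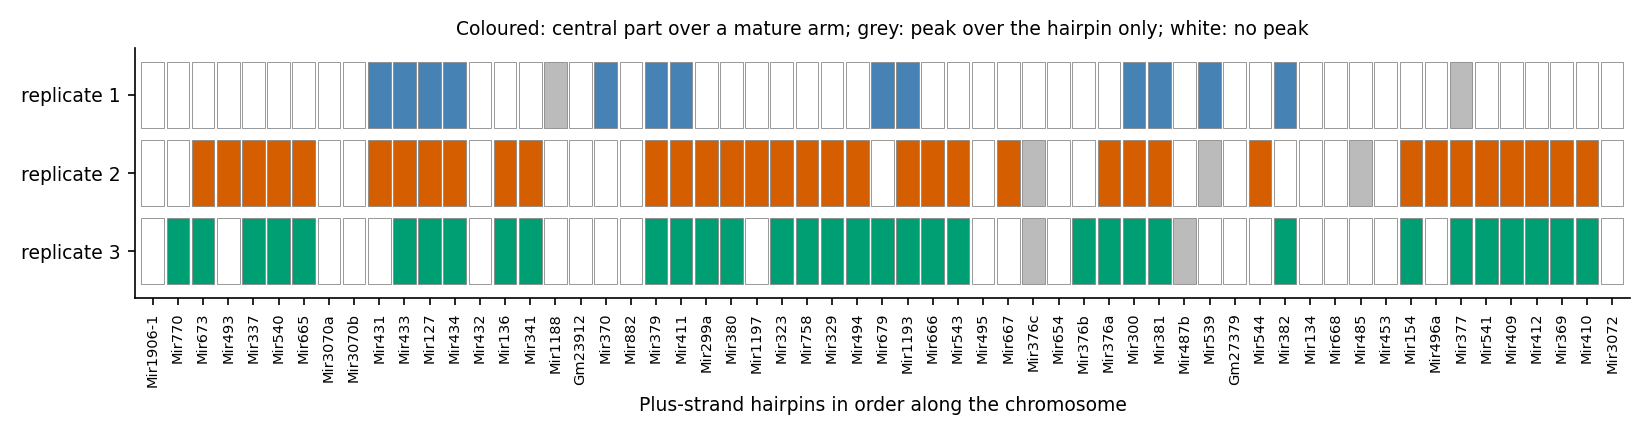
The 59 plus-strand hairpins in order along the chromosome on the x axis and the 3 libraries on the y axis; a coloured cell has the central part of a peak over a mature arm by at least 15 nt, a grey cell has a peak over the hairpin only, and a white cell has none. Replicates 2 and 3 are filled over much of the array, and replicate 1 has a peak at 15 hairpins.

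The hairpins fell into 5 stretches along the plus strand. In and after Meg3, ahead of Rtl1, 0, 5 and 5 of 9 hairpins had a same-strand peak in replicates 1, 2 and 3. Opposite Rtl1 it was 4, 5 and 4 of 6, in Rian 2, 1 and 1 of 4, between Rian and Mirg 7, 19 and 18 of 26, and in Mirg 2, 9 and 8 of 14. Replicate 1 was the lowest library in 3 of the stretches. Opposite Rtl1 it was level with replicate 3, and in Rian it was the highest. These exceptions drew on long peaks of replicate 1. Mir431, Mir433 and Mir434 had no peak there other than those of 1966 and 1722 nt described below. Mir370 in Rian had only a peak of 2873 nt. With so few hairpins, and with neighbours cut from shared transcripts, the order of the stretches was not tested.

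Several hairpins of this locus are well known in neurons, and they did not behave alike. Mir770, which overlaps an exon of Meg3 in the annotation, had 0, 0 and 2 peaks in replicates 1, 2 and 3, with both of its arms under a central part in replicate 3. Mir410 had 0, 1 and 1, Mir154 had 0, 2 and 2, and Mir376a had 0, 2 and 2. Mir410, Mir154 and Mir376a thus had peaks in replicates 2 and 3 and none in replicate 1. Mir134, known for its part in dendritic spines, had 0 peaks on its strand in every library and 1 on the opposite strand in replicate 1. Mir495 had 0 on either strand. A hairpin without a peak is not shown to be silent, since read depth was unknown.

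Mature arms were covered more narrowly. The central part of a peak overlapped a mature arm by at least 15 nt for 16 arms in replicate 1, 50 in replicate 2 and 47 in replicate 3, out of 112. In all 3 libraries it was the 6 arms printed first, or 5.36%, beside 10.8% of all mature miRNAs in the table. In at least 2 libraries it was 41, and without replicate 1 it was 35 in both others. Among the 52 hairpins with both arms in the table, only the 3p arm was covered in 15, only the 5p arm in 6, both arms in 22 and neither in 9. For Mir411 it was the 5p arm in 3 libraries and the 3p arm in 0, and for Mir1193 the 3p arm in 3 and the 5p arm in 0. Mir379 had its 3p arm covered in 3 libraries and its 5p arm in 2, as did Mir127 and Mir300, and Mir381 had its 5p arm in 3 and its 3p arm in 1.

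The hairpins of Mir379 and Mir1193 are shown because both had the 3p arm covered in all 3 libraries, while the 5p arm was covered in 2 libraries for Mir379 and in 0 for Mir1193. Capitals mark the mature arms. Mir379 lies at chr12:109709060-109709125 and Mir1193 at chr12:109715671-109715791, both on the plus strand of GRCm38.
Mir379: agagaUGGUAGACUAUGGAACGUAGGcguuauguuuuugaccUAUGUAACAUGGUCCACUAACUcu
Mir1193: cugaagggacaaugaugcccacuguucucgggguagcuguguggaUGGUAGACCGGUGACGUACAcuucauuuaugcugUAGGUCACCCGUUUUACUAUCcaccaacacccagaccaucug

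Central parts began at the first base of the mature miRNA more often than at any other base. Over the locus there were 113 pairs of a central part and the mature arm it covered. They came from 12, 49 and 47 different peaks in replicates 1, 2 and 3. Some pairs thus shared a peak, and the Wilson intervals below treat pairs as separate. The central part was over 100 nt wide in 8 of the 16 pairs of replicate 1, and in 1 and 0 pairs of replicates 2 and 3. The central part began exactly at the first base in 10 of 16 pairs in replicate 1 (62.5%), 36 of 50 in replicate 2 (72.0%) and 36 of 47 in replicate 3 (76.6%), a mean of 70.4% ± 7.19 (SD, n = 3). For mature miRNAs elsewhere in the genome the shares were 47.3% of 294, 38.6% of 498 and 36.5% of 480 pairs, a mean of 40.8% ± 5.74. Every library was higher in the locus than elsewhere, and the Wilson intervals did not overlap in replicates 2 and 3 (58.3 to 82.5% against 34.4 to 42.9%, and 62.8 to 86.4% against 32.3 to 40.9%). In replicate 1 they did overlap (38.6 to 81.5% against 41.6 to 53.0%). Pairs with a start 10 nt or more ahead of the first base made up 17.7, 23.7 and 23.1% elsewhere (replicates 1, 2 and 3). In the locus they made up 25, 2 and 0%. Their part in the difference was not tested. The difference was not tested further, because arms of a cluster are not independent.

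The 3′ side was looser. The central part ran past the last mature base in 102 of 113 pairs, ended on it in 4 and before it in 7, with a median of 4 nt past it, the same median as elsewhere in the genome. Of the 41 arms covered in at least 2 libraries, 20 had a central part that began at the first base in every library with one. The clearest was miR-1193-3p. Its first base is 109715750, and its central parts ran from there to 109715772, 109715773 and 109715774 (replicates 1, 2 and 3). For miR-411-5p, which begins at 109710190, they began at that base in replicate 1, 1 nt earlier in replicate 2 and 5 nt earlier in replicate 3.

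**Figure D3:**
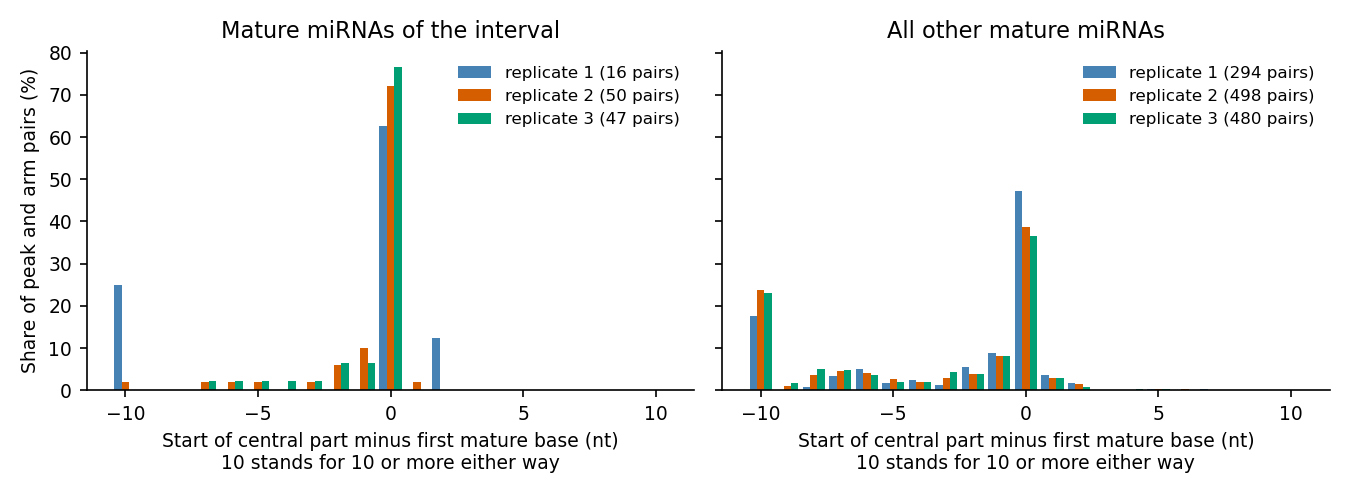
Share of pairs in percent, by the distance in nt from the first base of the mature miRNA to the start of the central part, for the locus (left) and all other mature miRNAs (right), with a bar for each library. The bar at 0 is highest on both sides, at 62.5, 72.0 and 76.6% in the locus and 47.3, 38.6 and 36.5% elsewhere.

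Long peaks of replicate 1 joined neighbouring hairpins. A peak of 1966 nt ran over Mir431 and Mir433 (chr12:109590429-109592394) and had its central start at the first base of miR-431-5p. A peak of 1722 nt ran over Mir127 and Mir434 (chr12:109592858-109594579), with a central part from the first base of miR-127-3p, 109592888, to the last base of miR-434-5p, 109594549. Neither of these had a like peak in the other libraries, where the widest peak over the Rtl1 hairpins was 122 nt. Mir433 and Mir434 had no other peak in replicate 1, and Mir377 rested on a peak of 346 nt in replicate 2. In replicate 1, Mir377, which starts at 109740510, was reached only by the edge of a peak at chr12:109740437-109740517. With at least 15 nt of overlap the hairpins with a peak in all libraries were 8, as they were without the outer 30 nt of peaks. With peaks of at most 200 nt, an alternative chosen after seeing the data, the hairpins with a peak in all libraries were 6 and the arms 5.

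Rtl1, a gene derived from a retrotransposon and needed in the placenta, is read on the minus strand, and 11 mature miRNAs lie opposite it. All 11 fall inside its coding sequence and are fully complementary to its mRNA. The stretch of Rtl1 opposite miR-127-3p, chr12:109592888-109592909, reads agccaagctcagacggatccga on the minus strand. Over the exons of Rtl1 (6358 nt) the midpoints of same-strand peaks numbered 2, 1 and 2 in replicates 1, 2 and 3, and those of opposite-strand peaks 3, 6 and 5. In each library the miRNA strand had more. Per kb of exon this was 0.262 ± 0.0908 on the Rtl1 strand and 0.734 ± 0.240 on the miRNA strand (SD, n = 3).

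Rtl1-strand peaks over these mature arms were few. Replicate 1 had 1 over Mir127, at chr12:109592835-109592915. Replicates 2 and 3 had 1 each over Mir136, at chr12:109595332-109595414 and chr12:109595331-109595414. The hairpin Mir3071 is annotated there on the Rtl1 strand, and the central parts of both peaks began at the first base of miR-3071-5p (109595384, counted along the minus strand). On the plus strand the same replicates had central parts over miR-136-5p that began 2 and 6 nt ahead of its first base. The hairpins are printed with their mature arms in capitals, because they are cut from opposite strands of the same stretch. Mir136 lies at chr12:109595327-109595388 on the plus strand and Mir3071 at chr12:109595318-109595397 on the minus strand.
Mir136: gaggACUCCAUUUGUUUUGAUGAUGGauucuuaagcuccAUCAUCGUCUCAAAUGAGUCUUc
Mir3071: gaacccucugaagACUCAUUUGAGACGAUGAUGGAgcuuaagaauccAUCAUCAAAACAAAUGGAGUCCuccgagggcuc

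All 6 genes had a same-strand peak over an exon in every library. This held for 42.8% of protein-coding genes and for 4.21% of long non-coding RNA genes. For Rtl1 in replicate 2 it was the peak over Mir3071 alone, and the exon peaks of Mirg in replicate 3, 2 of 2, both overlapped hairpins. A peak anywhere in the gene was also found in every library for all 6, beside 64.4% of protein-coding and 31.3% of long non-coding RNA genes. Long exons offer more room for a peak, and those of Meg3, Rian and Mirg come to 18089, 18234 and 7292 nt, so levels are given per kb.

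Dlk1, which encodes a transmembrane protein of the Notch ligand family that restrains differentiation, had the most exon peaks summed over the libraries, though Rian had more in replicate 3. Their midpoints numbered 4 in replicate 1, 15 in replicate 2 and 10 in replicate 3 over 5657 nt of exon (chr12:109452823-109463336), and the opposite strand held 0, 1 and 2. Per kb this was 0.707, 2.65 and 1.77, a mean of 1.71 ± 0.974 (SD, n = 3), while the medians of all protein-coding genes were 0.143, 0.200 and 0.303. In every library the same-strand number was above the opposite one. Dlk1 stood above 84.5, 89.5 and 79.2% of protein-coding genes in replicates 1, 2 and 3. Its introns, 4857 nt, held 1, 1 and 0 peaks.

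Within Dlk1, by midpoint, 1, 6 and 4 peaks were in the coding sequence, 3, 9 and 6 in the 3′UTR and 0 in the 5′UTR. Of the coding ones, 1, 3 and 3 lay in the last 500 nt before the end of the coding sequence, and 0, 3 and 1 lay farther ahead. The 18 peaks of the 3′UTR lay between 6 and 2226 nt past the last coding base, with a median of 372.5 nt. The first 1000 nt, 33.6% of the 2976 nt of 3′UTR, held 13 of the 18 (72.2%), which were 3 of 3, 7 of 9 and 3 of 6 in replicates 1, 2 and 3. Replicate 3 alone held equal numbers before and after that mark. With whole peaks, stretches covered in all libraries were 24 nt long at chr12:109460327-109460350, still in the coding sequence, and 77 nt long at chr12:109460409-109460485, which starts 49 nt past the last coding base. With central parts only, the first was lost and 17 nt of the other remained, at chr12:109460439-109460455.

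**Figure D4:**
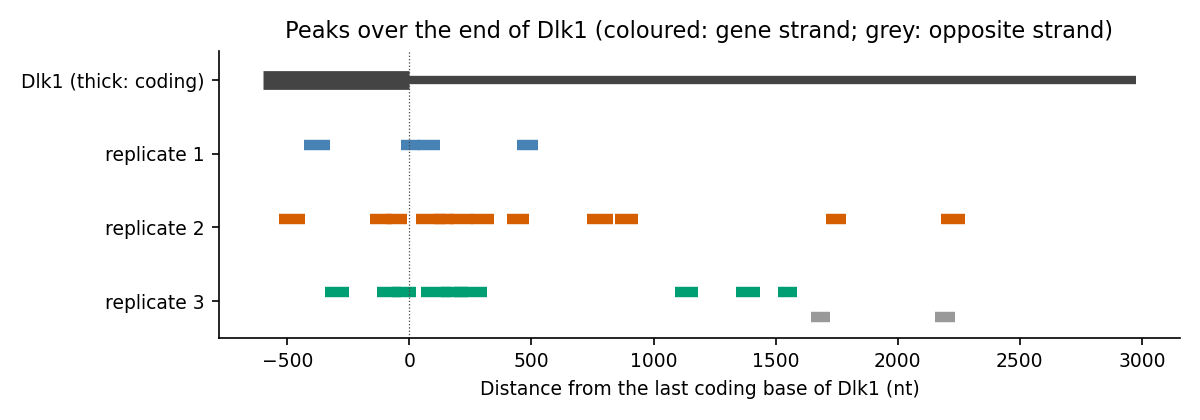
Peaks over the end of Dlk1 by library, with the distance from the last coding base in nt on the x axis; each bar spans a deposited peak, coloured on the Dlk1 strand and grey on the opposite strand, below the coding end (thick) and the 3′UTR (thin). Peaks of all 3 libraries gather around 0, and 13 of the 18 peaks of the 3′UTR lie within 1000 nt.

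Dio3, the deiodinase that inactivates thyroid hormone, lies outside the interval, at chr12:110279068-110281097, and has 1 exon of 2030 nt. By midpoint it had 3, 1 and 2 same-strand peaks, or 1.48, 0.493 and 0.985 per kb, and 0, 0 and 1 on the opposite strand. By overlap, a peak of 4138 nt on the opposite strand in replicate 1 also reached into the exon. A peak at its 5′ end began at the same base, 110279044, in all 3 libraries. Its central part began at 110279074 and ended at 110279099, 110279092 and 110279094 (replicates 1, 2 and 3). In replicate 2 it was the only peak of the gene, and the peaks of replicates 1 and 3 in the 3′UTR did not overlap each other.

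The long non-coding genes were Meg3, Rian and Mirg. Meg3, a nuclear RNA studied as a growth suppressor, had 3, 1 and 5 exon peaks on its strand and 3, 1 and 0 on the other, by midpoint, so that in replicates 1 and 2 the strands were equal in exons. In its introns it had 1, 0 and 0 on its strand and 5, 1 and 1 on the other, so the opposite strand had more there in every library. The hairpin Mir770 was overlapped by 2 of the 5 in replicate 3. The exons of Meg3 held 0.166 ± 0.111 peaks per kb on its strand (SD, n = 3) and 0.0737 ± 0.0844 on the other. Rian, a host of snoRNAs, had 3, 2 and 12 exon peaks and 8, 11 and 8 intron peaks, or 0.311 ± 0.302 and 0.228 ± 0.0438 per kb. Replicate 3 alone was high in its exons. The opposite strand of Rian held 1, 2 and 1 in exons and 9, 3 and 3 in introns, which was as many as its own strand in the exons of replicate 2 and more in the introns of replicate 1. In Rian introns, 2, 1 and 1 of the peaks overlapped a hairpin. Mirg, whose name stands for a miRNA-containing gene, had 2, 5 and 2 in exons and 5, 9 and 9 in introns, or 0.411 ± 0.238 and 0.618 ± 0.186 per kb, and the opposite strand held 1, 1 and 1 in exons and 0, 1 and 2 in introns. Hairpins of Mirg were overlapped by 1, 3 and 2 of its exon peaks and by 1, 9 and 9 of its intron peaks, so in replicates 2 and 3 every intron peak lay over a hairpin. All long non-coding genes of the genome had a median of 0 per kb of exon in each library, and between 82.6 and 87.1% of them had no peak.

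**Figure D5:**
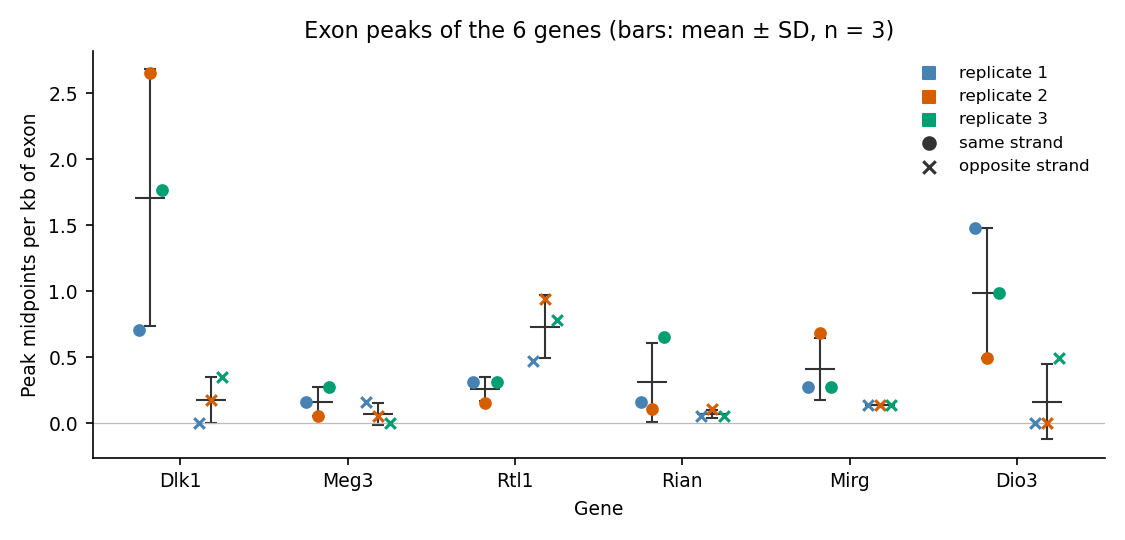
Midpoints of peaks per kb of exon for the 6 genes, on the gene's strand (circles) and the opposite strand (crosses), with a point for each library and the mean ± SD (n = 3). Dlk1 spreads from 0.707 to 2.65 on its own strand, and Rtl1 is the gene with more peaks on the opposite strand in every library.

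The order of the means was Dlk1, Dio3, Mirg, Rian, Rtl1 and Meg3. It changed below Dio3 when a library was left out. Without replicate 3, Rian fell from 0.311 to 0.137 per kb, under Rtl1 at 0.236. Without replicate 2, Mirg was at 0.274 per kb, under Rian at 0.411 and Rtl1 at 0.315. Without replicate 1 the order was as given. The ranges of neighbours in this order overlapped in each case. Taken library by library, Rtl1 and Meg3 were the only neighbours that kept their order in all 3. Rtl1 had 0.315, 0.157 and 0.315 per kb and Meg3 had 0.166, 0.0553 and 0.276 (replicates 1, 2 and 3). The libraries of Dlk1, from 0.707 to 2.65, lay above those of Mirg, Rian, Rtl1 and Meg3, of which the highest was 0.686 (Mirg in replicate 2). This is a description of 3 libraries, with no test between genes. The genes also differed in the width of their peaks. Of the same-strand exon peaks of Dlk1, 23 were 86 to 200 nt wide and 6 were at most 85 nt. For Rtl1 it was 0 and 5, for Meg3 1 and 8, for Rian 7 and 8, for Mirg 3 and 4, and for Dio3 1 and 5. With peaks of 86 to 200 nt only, Dlk1 was the gene, 1 of 6, that still had an exon peak in every library.

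Over the whole interval, and with whole peaks, 15 stretches of at least 8 nt were covered on the same strand in all 3 libraries, 13 on the plus and 2 on the minus strand. Leaving out each library gave 23 to 46, with the highest number without replicate 1. Of the 15, 8 lay over hairpins, with a median length of 83 nt, 2 over Dlk1 exons and 5 over neither. With peaks of at most 200 nt there were 9 in place of 15. Both minus-strand stretches rested on peaks of 10923 nt in replicate 1 and 9755 nt in replicate 3. The plus-strand stretches at chr12:109400143-109400221 and chr12:109400486-109400579, over neither, rested in part on a peak of 5017 nt. No such stretch lay in Meg3, Rian, Mirg or Rtl1 on the gene's own strand. The peaks of these genes thus did not meet at the same bases in all 3 libraries.

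The 23 snoRNA genes of the interval, small RNAs of a class that guides methylation of other RNAs, had a peak in 4, 1 and 3 cases in replicates 1, 2 and 3. The 4 of replicate 1 lay under the same peak of 5387 nt, and 2 others under peaks of 737 nt (replicate 2) and 1302 nt (replicate 3). The remaining 2, AF357425 and AF357428, had peaks of 92 and 91 nt in replicate 3. No gene had a peak in more than 1 library, and 0 had a peak in all libraries, beside 5.97% of all snoRNA genes.

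Compared with 2 other clusters, the locus lay between them. The 119 hairpins within Sfmbt2, another imprinted gene, had a same-strand peak in 6, 5 and 8 cases, and 2 of them in all libraries (1.68%). The 6 hairpins of Mir17hg, a polycistron that is active in many tumours, had it in 5, 5 and 6 cases, and 5 in all libraries. Replicate 1 was the lowest library by a wide margin in the Dlk1-Dio3 locus but not in these clusters. No test was made between clusters, because hairpins of a cluster come from shared transcripts.

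Of a list of 49 other imprinted genes, 26 (53.1%) had an exon peak in every library, beside 42.8% of protein-coding and 4.21% of long non-coding RNA genes. H19, a long non-coding RNA, had 1 only in replicate 2, Igf2, a growth factor, and Airn, a silencing RNA, in replicates 2 and 3, and Igf2r, the receptor that clears Igf2, in all of them. Of 14 other protein-coding genes within 1 Mb of the interval, 8 (57.1%) had an exon peak in every library, beside the 42.8% of all protein-coding genes. Evl, a regulator of actin, and Yy1, a zinc finger transcription factor, were among them. Eml1, a microtubule protein, had a peak in 2 libraries and Degs2, an enzyme of sphingolipid synthesis, in 1.

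The deposited score was below its top value more often for hairpin peaks than for other peaks. Its unit is not given in the sources used here. Its top value was 60. It was below 60 for 4 of 14 hairpin peaks of the locus in replicate 1 (28.6%), 22 of 53 in replicate 2 (41.5%) and 5 of 49 in replicate 3 (10.2%), a mean of 26.8% ± 15.7 (SD, n = 3). Away from hairpins in the interval it was 2 of 94, 0 of 75 and 1 of 95. For the 75 peaks of replicate 2 the Wilson interval went up to 4.87%. For hairpins elsewhere in the genome it was 34.9% ± 5.73, and for all remaining peaks 0.690% ± 0.396. Scores below 60 were thus found at hairpins in general.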

How the data were processed

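Ago HITS‐clip was measured in 3 libraries of N2A cells. Submitters' processing notes name FastQC, cutadapt, STAR and mm10 (GRCm38). The peak caller and its threshold are not given in the sources used here. The deposited table holds intervals and a score made by the authors for each library, with no counts. The score ran from 54.6 to 60 and its unit is unknown. There were 0 further columns of values per sample. Starts were read as counted from 0. Starts down to -30 were taken as 30 nt of padding on each side.

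Features came from GENCODE M21 and miRNA sequences from RefSeq GRCm38.p6. Overlap needed 1 nt on the stated strand, and a mature arm 15 nt. Peaks off the nuclear chromosomes were left out. Genes, hairpins and lists were chosen with earlier results of these data known. The genes named were the 6 genes, hairpins with a peak in all libraries, 13 listed hairpins and up to 4 genes of each other list in list order. Further sentences name genes as examples chosen after their values were seen. Overlap counting was tested on simulated data. Alternatives changed score, overlap, width, padding, number of peaks and libraries. Scripts ran in Python 3.11.15 with pandas 2.3.3, scipy 1.17.1, pysam 0.24.0 and numpy 2.4.6.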

Additional observations from a re-analysis of the deposited data

How the results depend on the processing

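No paired analysis was possible because there is 1 group of samples and no second group to pair it with. Of 167 recomputed values, 131 stayed within 1.5 times the count or within 1 SD, 36 moved and 0 changed direction; causes were not tested. The number of hairpins with a peak in all libraries, 9 of 66, was 3 with the highest score only and 1 with peaks of 86 to 200 nt, and 36 of 66 had a peak in at least 2 libraries. Opposite-strand hairpins went from 0 to 8 with at least 2 libraries. The 6 mature arms became 1 with the highest score, 1 with 86 to 200 nt, 2 with equal numbers of peaks, 41 with at least 2 libraries and 11 with whole peaks. Common regions, 15, became 7, 2, 8 and 62 with the highest score, 86 to 200 nt, equal numbers and at least 2 libraries, and 9 with peaks of at most 200 nt, chosen after seeing the data. With 86 to 200 nt the plus-strand share was 81.4%, genes covered in every library went from 6 to 1, by exons or by whole genes, and exon peaks per kb were 0.0184 (Meg3), 0 (Rtl1), 0.137 (Mirg) and 0.164 (Dio3). Rtl1 was 0.157 with equal numbers. The remaining lists were put through these settings after seeing the data. Imprinted genes went from 26 to 17 with 86 to 200 nt. Sfmbt2 hairpins were 0 with the highest score and 4 with at least 2 libraries, and Mir17hg hairpins were 0, 3 and 3 with the highest score, 86 to 200 nt and equal numbers. Leaving out each library, where a peak is needed in only the other 2, gave 11 to 32 hairpins, 0 to 7 opposite-strand hairpins, 8 to 35 arms and 23 to 46 common regions; the highest were without replicate 1. It gave plus-strand shares of 65.6 to 74.7% and shares over hairpins of 33.5 to 48.9%, and exon peaks per kb of 1.24 to 2.21 (Dlk1), 0.111 to 0.221 (Meg3), 0.236 to 0.315 (Rtl1), 0.137 to 0.411 (Rian), 0.274 to 0.480 (Mirg) and 0.739 to 1.23 (Dio3). Read depth is unknown, so a missing peak sets no limit.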
